A study of Arabidopsis thaliana with 6 samples.

Results

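QQS (QUA-QUINE STARCH, AT3G30720) was followed through its probe set 256940_at, the 1 probe set that the platform annotation pairs with it, among 22746 probe sets other than the Affymetrix controls. It was selected on its measured difference between the genotypes, as one of the larger rises in 35S:PCO1. Its difference between the genotypes and its spread are therefore given as a description and carry no test. Total RNA from rosettes of Arabidopsis thaliana grown in normal air was hybridised to Affymetrix Arabidopsis GeneChips, with 3 arrays of 35S:PCO1 plants and 3 of wild-type plants. The 35S:PCO1 plants overexpress plant cysteine oxidase 1 from the viral 35S promoter, which is active in nearly all tissues, and the labels do not state if they descend from 1 transgenic line or several. CDO1 stands in their sample titles, but PCO1 in the genotype label and in the series title. Wild type carried no transgene by its label. Both genotypes shared the growth regime of 8 h light at 22 °C and 16 h darkness at 18 °C, with harvest 2 h into the light period. Stratification, a cold treatment before growth, was 2 days at 4 °C for both. The plants' age is 4 weeks in one label and 5 weeks in another.

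QQS is an orphan gene: its short protein has no recognised relatives outside Arabidopsis thaliana. As background, leaves in which QQS is silenced hold more starch, and leaves that overexpress it hold less starch and more protein. The QQS protein binds NF-YC4, a subunit of the CCAAT-binding factor NF-Y, and QQS transcript levels are known to vary between plants and accessions with DNA methylation at the gene. PCO1 uses oxygen to oxidise a cysteine at the start of the ERF-VII transcription factors, and these activators of low-oxygen genes are then degraded. No level is assigned to PCO1, since its probe set is not named in the annotation used here.

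All values are log2 signals, in which a step of 1 is a doubling. The QQS signal was 8.09, 8.44 and 8.46 in 35S:PCO1 replicates 1, 2 and 3, against 7.77, 7.65 and 7.46 in wild-type replicates 1, 2 and 3. Every 35S:PCO1 array lay above every wild-type array, with 35S:PCO1 replicate 1 nearest to wild type and wild-type replicate 3 lowest of all. The group means were 8.33 ± 0.21 in 35S:PCO1 and 7.63 ± 0.15 in wild type (SD, n = 3 each), a difference of 0.70 on the log2 scale or 1.63-fold. This exceeded the SD of each group. The closest pair of arrays from different groups differed by 0.32 (1.25-fold) and the widest pair by 1.00 (1.99-fold). All 6 values stood well above the 12 dap and lys control probe sets, which target bacterial transcripts. Those lay between 3.07 and 3.82 and serve as a floor of the signal. In whole rosettes, a change in the share of cells that express QQS cannot be told apart from a change in transcript per cell. Whether a replicate was 1 plant or a pool is not stated in the labels, and the spread between replicates may be technical.

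**Figure D1:**
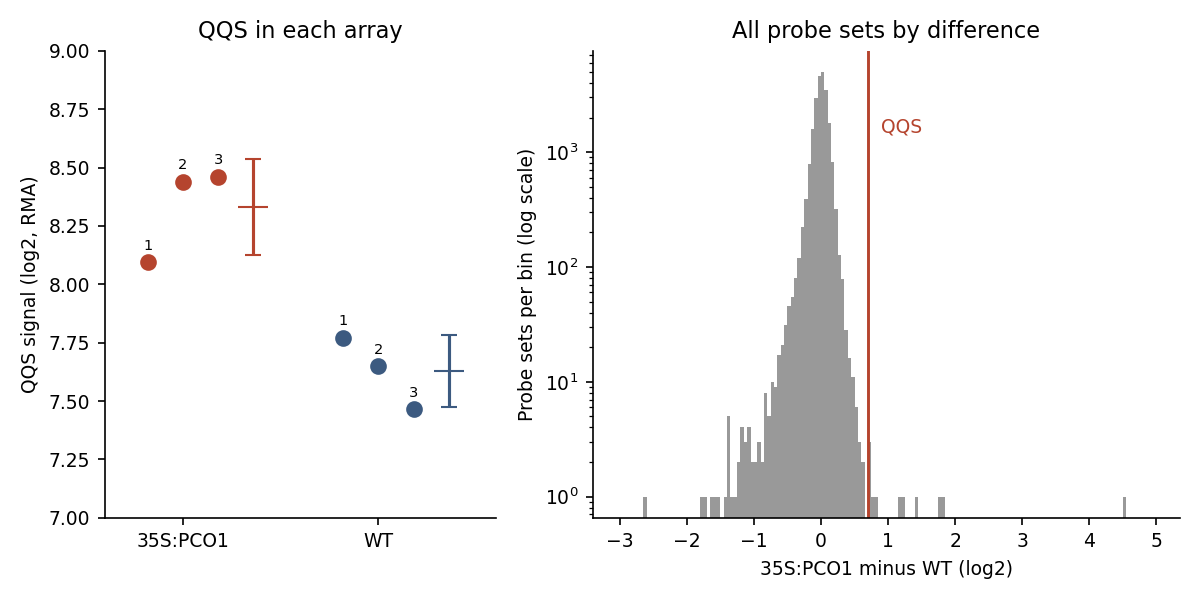
QQS signal in each array (left; points are arrays numbered by replicate, bars are mean ± SD, n = 3 each) and the distribution of the difference between genotypes over all 22746 probe sets (right; log count axis). The 35S:PCO1 arrays sit between 8.09 and 8.46 and the wild-type arrays between 7.46 and 7.77, and the line marks the QQS difference of 0.70.

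By signed difference QQS ranked 11 of 22746 probe sets, and 6 of the 13513 that are paired with exactly 1 gene. By size, whichever the direction, it ranked 68 of all probe sets and 30 of those with 1 gene, because falls were more often large than rises. Rises of 1.5-fold or more were seen for 14 probe sets and falls of that size for 90. The median difference of all probe sets was 0.0036, and 90% of them lay between -0.19 and 0.16. Next above QQS among probe sets with 1 gene stood AT4G12500 (0.71), a gene of the lipid transfer protein type, and AT2G33850 (0.73), and next below stood AT1G79770 (0.60) and AT1G62510 (0.53). In the whole table, limma with Benjamini-Hochberg adjustment called 191 (0.84%) of the probe sets changed, and 13.4% had an unadjusted p under 0.05. That background moved with single arrays: leaving out 35S:PCO1 replicate 1 or 3, or wild-type replicate 2, left 5 called, leaving out 35S:PCO1 replicate 2 left 105, and leaving out wild-type replicate 1 gave 489. Array weights gave 2216. Groups that did not overlap, with 35S:PCO1 above wild type as for QQS, were found for 2064 probe sets, or 9.07%.

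QQS differed from the probe sets ranked above it in which 35S:PCO1 arrays were high. In all 10 of them 35S:PCO1 replicate 2 was the lowest array of its group, whereas in QQS replicate 1 was the lowest and replicate 2 lay 0.02 below replicate 3. Groups that did not overlap were found for 6 of the 10, against 9.07% of all probe sets, and 8 of the 10 had a larger SD within 35S:PCO1 than QQS. The 10 were picked by their rise, which bears on these counts, so they are a description only. How many of all probe sets had replicate 2 lowest was not counted. The 10 need not be separate cases: 247717_at (9.89, 7.22 and 9.86 in 35S:PCO1) and 247718_at (8.13, 6.08 and 8.21) ran alike. Below QQS, 257890_s_at, ranked 19 by rise, also had 35S:PCO1 replicate 1 lowest. These probe sets, AT4G12490, HIS1-3 and AT1G43590 lie outside the naming rule and were chosen after their values were seen. AT4G12490, also of the lipid transfer protein type, had 8.50, 7.13 and 8.30 in 35S:PCO1, against 6.96, 6.80 and 6.66 in wild type, so that 35S:PCO1 replicate 2 lay near wild type. HIS1-3, a gene for a linker histone, had 8.42, 7.55 and 8.33 in 35S:PCO1, against 7.06, 7.34 and 7.55 in wild type. There 35S:PCO1 replicate 2 exceeded the highest wild-type array by 0.0086. AT4G12500 had 7.15, 5.83 and 7.16 in 35S:PCO1, against 6.20, 5.90 and 5.93 in wild type, and 35S:PCO1 replicate 2 was the lowest array of all 6. Not all of the larger rises had replicate 2 near wild type. AT1G43590, the second largest rise, had 7.27, 7.02 and 7.16 in 35S:PCO1, against 5.51, 5.18 and 5.33 in wild type, with an SD of 0.13 within 35S:PCO1, below that of QQS. The rank of QQS depended on that array: without 35S:PCO1 replicate 2 QQS ranked 19, and without 35S:PCO1 replicate 1 it ranked 7. Its difference was between 0.62 and 0.82 when any single array was left out, and could not change sign, since its groups did not overlap.

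**Figure D2:**
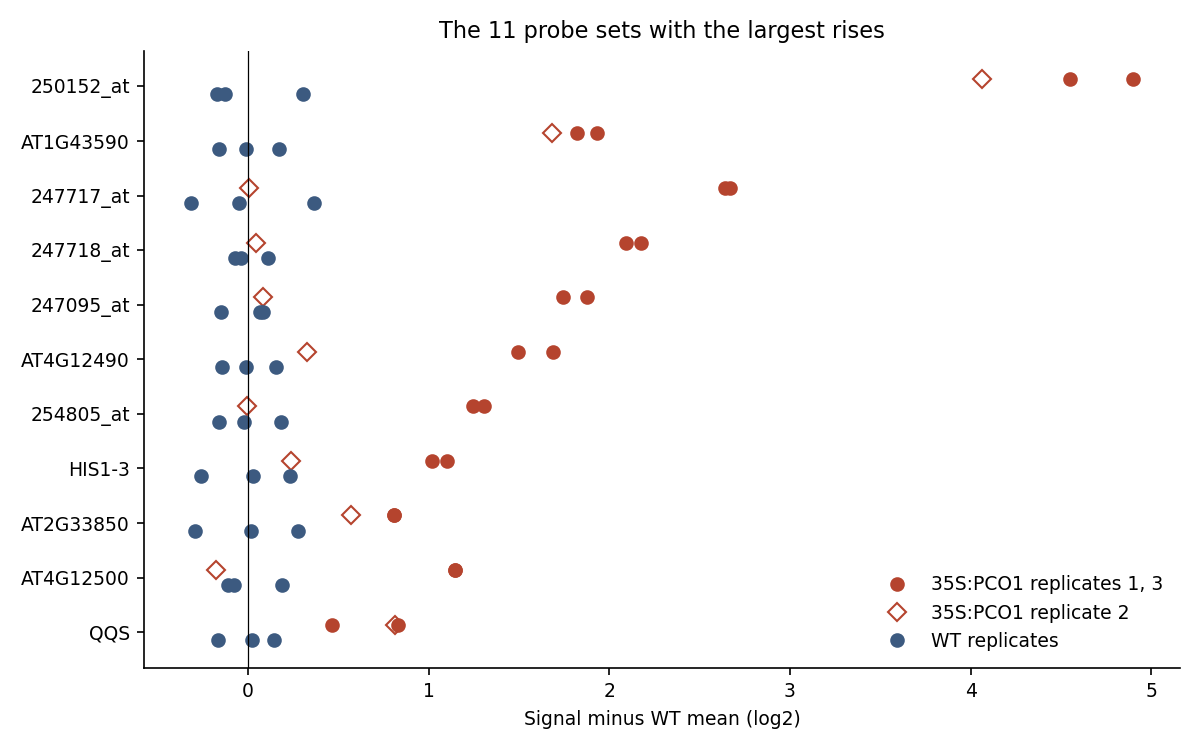
Signal of each array minus the wild-type mean (log2) for the 11 probe sets with the largest rises, ordered by difference, with 35S:PCO1 above wild type in each row. The open diamond, 35S:PCO1 replicate 2, is the lowest 35S:PCO1 array in the 10 upper rows but not for QQS.

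The largest rise of all, that of 250152_at, was also chosen for its values. The annotation gives it no gene, though it may measure a known one. Its signals were 10.97, 10.13 and 10.62 in 35S:PCO1 replicates 1, 2 and 3, against 5.94, 5.90 and 6.37 in wild type. Within 35S:PCO1 its highest array, replicate 1, was the array in which QQS was lowest, and with 3 arrays this is a description only.

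QQS varied more between replicates than most probe sets did in both genotypes. Its SD of 0.21 over the 35S:PCO1 arrays ranked 319 of 22746 and was 3.12 times the median SD of 0.066. Its SD of 0.15 over the wild-type arrays ranked 2608 and was 2.05 times the median of 0.075. The spread within 35S:PCO1 came from replicate 1, which lay 0.24 below the group mean, while replicates 2 and 3 lay 0.11 and 0.13 above it. In wild type the arrays were more evenly spaced, at 0.14 and 0.02 above the group mean and 0.16 below it. Among the 3036 probe sets whose mean signal lay within 0.5 of that of QQS, it ranked 4 by rise, 39 by SD in 35S:PCO1 and 371 by SD in wild type. An SD at least as large as that of QQS in both genotypes at once was found for 115 probe sets, QQS included, or 0.506% of all. Over the 6 arrays together, where the difference between genotypes adds to the spread, QQS had an SD of 0.42 and ranked 97.

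**Figure D3:**
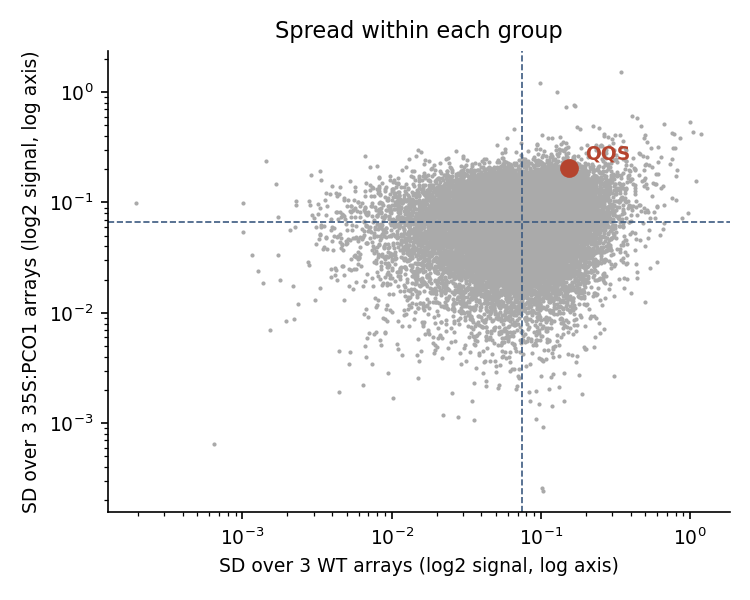
SD over the 3 35S:PCO1 arrays (vertical) and over the 3 wild-type arrays (horizontal) for every probe set, on log axes, with dashed lines at the medians of 0.066 for 35S:PCO1 and 0.075 for wild type. QQS lies above both medians, with SDs of 0.21 for 35S:PCO1 and 0.15 for wild type.

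Among measures of the arrays themselves, the control for 25S ribosomal RNA separated the groups. Several moved with QQS across the wild-type arrays but not across the 35S:PCO1 arrays. The control probe set for 25S ribosomal RNA was 7.39, 7.54 and 7.30 in 35S:PCO1 replicates 1, 2 and 3, against 8.88, 8.66 and 8.48 in wild type. Within wild type it was highest in replicate 1 and lowest in replicate 3, the order that QQS also had there, while between the groups it ran the other way. The 3' minus 5' signal averaged over 6 control pairs for actin, GAPDH and ubiquitin was 0.579, 0.628 and 0.547 in 35S:PCO1, against 0.761, 0.688 and 0.581 in wild type. Its groups overlapped, and it too was highest in wild-type replicate 1 and lowest in wild-type replicate 3. The control for 5S ribosomal RNA was 5.84, 5.51 and 5.91 in 35S:PCO1, against 5.85, 5.76 and 5.54 in wild type. Its groups overlapped as well (difference 0.04), with the same order in wild type. Within 35S:PCO1 the 25S control and the 3' minus 5' signal were lowest in replicate 3, where QQS was highest. The 5S control was highest there and lowest in replicate 2. With 3 arrays per group these orders are a description only. The array medians lay between 6.11 and 6.12 in 35S:PCO1 and between 6.12 and 6.15 in wild type. In wild type they rose from replicate 1 to 3, the reverse of QQS. Correlations between arrays over all probe sets were 0.995 to 0.999. The part of these measures in the QQS values was not tested.

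The rosette label was checked against organ markers, of which few were named in the annotation. Of 20 leaf genes 4 were measured: RCA (Rubisco activase), LHCB4.1 (a light-harvesting protein), SBPASE and PRK (enzymes of the Calvin cycle), with signals of 12.2 to 13.6 in all arrays and differences of -0.04 to 0.12. Of 10 root genes 2 were measured. PYK10, a beta-glucosidase abundant in roots, had 7.55, 7.74 and 7.60 in 35S:PCO1, against 8.38, 8.19 and 7.68 in wild type. EXPA7, a root hair expansin, had 6.27, 6.13 and 6.08 in 35S:PCO1, against 6.01, 5.89 and 5.99 in wild type. The PYK10 groups overlapped through wild-type replicate 3. EXPA7 was higher in every 35S:PCO1 array than in any wild-type array, as were 9.07% of all probe sets. The mean signal over the measured genes of a list ran from 6.84 to 6.93 in 35S:PCO1 and from 6.84 to 7.20 in wild type for root, and from 13.05 to 13.09 in 35S:PCO1 and from 12.98 to 13.07 in wild type for leaf. Of 6 flower genes 1 was measured, the anther gene AMS, at 3.41 to 3.87 and thus near the floor, and none of the 7 seed storage genes. None of these 7 measured markers passed (limma, lowest adjusted p = 0.233), where 0.84% of all probe sets did. An unadjusted p under 0.05 was found for 13.4% of all probe sets and for 2 of the 7 markers: PYK10 and EXPA7 had an unadjusted p of 0.0133 and 0.0170. PYK10 passed without wild-type replicate 3 (adjusted p = 0.0180) and PYK10 and EXPA7 both passed with array weights (adjusted p = 0.00721 and 0.0277). Their part in the QQS difference was not tested.

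The measured genes that build starch had small differences between the genotypes. Of 22 genes listed for starch synthesis 7 were measured. Their differences ran from -0.23 to 0.10, with 4 above 0 and 3 below, and the median was 0.0072, against 0.0036 for all probe sets. None was as large as that of QQS. QQS was chosen for its difference and ranked 68 of 22746 by size, so few genes could match it and nothing is read from this. By limma 0 of the 7 passed in either direction and 0 had an unadjusted p under 0.05. With 0.84% and 13.4% of all probe sets at these thresholds, so few genes give counts near the background, and nothing is read from them. The list covers less than its pathway, because most of its genes are not paired with a probe set here.

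APL3 and APL4 encode large subunits of ADP-glucose pyrophosphorylase, the enzyme that makes the glucosyl donor for starch. APL4 had 3.89, 3.95 and 3.92 in 35S:PCO1, against 3.86, 4.08 and 4.49 in wild type (difference -0.23, SE 0.13, limma adjusted p = 0.508). Its 35S:PCO1 arrays lay within the wild-type range and just above the floor, which left little room to see a fall. APL3 had 6.43, 6.42 and 6.31 in 35S:PCO1, against 6.45, 6.36 and 6.04 in wild type (difference 0.10, SE 0.10, adjusted p = 0.728). The groups overlapped, and wild-type replicate 3 was the low array, as it was for QQS. SBE2.2, a branching enzyme, averaged 8.78 ± 0.04 in 35S:PCO1 and 8.81 ± 0.12 in wild type (SD, n = 3 each). SS5 (AT5G65685), a starch synthase-like protein with a part in granule initiation, averaged 9.03 ± 0.04 in 35S:PCO1 and 9.08 ± 0.06 in wild type (SD, n = 3 each). The PTST proteins guide starch enzymes to their substrate: PTST1 (AT5G39790) brings the amylose-making synthase to the granule, while PTST2 (AT1G27070) and PTST3 (AT5G03420) act when granules start. Their differences were 0.03, 0.01 and 0.01, each smaller than its SE of 0.08, 0.07 and 0.06.

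Of 25 genes listed for starch breakdown 3 were measured, and 0 passed by limma (0.84% of all probe sets), with 0 at an unadjusted p under 0.05 (13.4% of all), which is again near the background. PWD, a dikinase that phosphorylates starch so that amylases can attack it, had 10.17, 10.14 and 10.17 in 35S:PCO1, against 10.26, 10.22 and 10.13 in wild type (difference -0.04, SE 0.06). DPE1, which rearranges short glucans in the plastid, averaged 8.88 ± 0.15 in 35S:PCO1 and 8.91 ± 0.04 in wild type (SD, n = 3 each). AMY1, an alpha-amylase that is secreted rather than plastidial, averaged 4.86 ± 0.11 in 35S:PCO1 and 4.79 ± 0.08 in wild type (SD, n = 3 each). The groups overlapped for these 3 genes as for the 7 of synthesis, while of all probe sets 18.4% had groups that did not overlap in either direction.

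**Figure D4:**
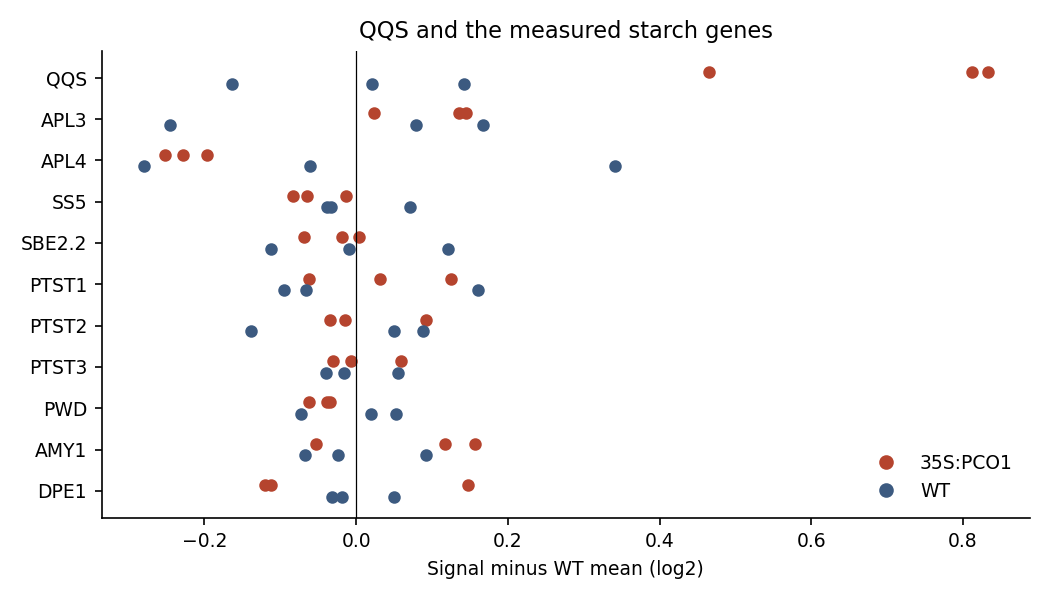
Signal of each array minus the wild-type mean (log2) for QQS and the 10 measured starch genes, with 35S:PCO1 above wild type in each row. The 35S:PCO1 points of QQS stand apart from its wild-type points, while the groups overlap for each of the 10 starch genes. QQS was chosen for its difference.

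The other processes tied to QQS could hardly be followed. None of the 36 genes listed for NF-Y, NF-YC4 among them, was paired with a probe set of its own. Of 35 genes for DNA methylation and silencing 1 was measured, DME, a glycosylase that removes methylated cytosine. It had 6.67, 6.55 and 6.44 in 35S:PCO1, against 6.66, 6.80 and 6.67 in wild type (difference -0.16, SE 0.07, limma adjusted p = 0.389), and it passed with array weights (adjusted p = 0.0394). The groups overlapped through 35S:PCO1 replicate 1. DME has 3 probe sets, and these values are of the one with the highest mean. With the DME probe set of lowest p instead, the gene did not pass either and had no unadjusted p under 0.05 (limma). Of 18 genes for sugar status 2 were measured, MCCA and MCCB, subunits of a carboxylase in leucine breakdown whose transcripts are known to rise when sugar is short. MCCB had 8.01, 8.02 and 8.00 in 35S:PCO1, against 8.17, 8.17 and 8.12 in wild type (difference -0.14, SE 0.05, limma adjusted p = 0.262). Its groups did not overlap, as for 18.4% of all probe sets. An unadjusted p under 0.05 was found for 1 of the 2 genes, MCCB (limma, 0.0180), and for 13.4% of all probe sets. MCCB too passed with array weights (adjusted p = 0.0388), as did 2216 probe sets in all. MCCA had 7.66, 7.44 and 7.54 in 35S:PCO1, against 7.52, 7.71 and 7.88 in wild type (difference -0.15, SE 0.09), with overlapping groups.

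On chromosome 3, QQS lies among pseudogenes in the RefSeq order of genes. The genes on either side, AT3G30722 and AT3G30724, are annotated as pseudogenes, and the next protein-coding gene on one side is GDU6, of the glutamine dumper family. None of these is paired with a probe set here. The nearest measured genes were AT3G30710 and AT3G30670, 12 and 24 genes away on one side, and AT3G30730 and AT3G30740, 4 and 7 genes away on the other. AT3G30710 averaged 4.59 ± 0.01 in 35S:PCO1 and 4.61 ± 0.03 in wild type (SD, n = 3 each). The signals of the other 3 were below the highest dap and lys control, 3.82, in every array, with differences of 0.0048 to 0.05. None of the 4 passed (limma, lowest adjusted p = 0.833; 0.84% of all probe sets passed), and none had an unadjusted p under 0.05 (13.4% of all), as few genes near the background would give. A fall in a gene at the floor was not detectable with these arrays.

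The genes whose pattern was most like that of QQS were sought among the 1118 probe sets with a range of at least 0.5 over the 6 arrays, of which 547 have 1 gene. Likeness was Pearson's r over the 6 arrays. It carries the difference between the genotypes, so that r of the deviations from the group means is given beside it, and neither has a p. The genes named were picked by r over the same 6 arrays. That choice favours a high r within groups, so the second r is no separate check. Of the 1118 probe sets, 30 besides QQS had an r over 0.9 and 146 had one under -0.9. QQS was chosen for its rise, and the range filter admits probe sets that differ between the genotypes. Falls of 1.5-fold or more outnumbered such rises, 90 against 14. The larger number of negative r is therefore not read as a trait of QQS. The most alike was AT1G02360, a chitinase family gene, with r = 0.993 and 0.994 within groups. It had 5.59, 5.84 and 5.85 in 35S:PCO1, against 5.50, 5.40 and 5.31 in wild type. Its arrays stood in the same order as those of QQS, and its difference was 0.36.

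AT1G31690, a copper amine oxidase gene, followed with r = 0.986 (0.921 within groups). It had 8.53, 8.80 and 8.72 in 35S:PCO1, against 8.38, 8.22 and 8.18 in wild type. As for QQS, 35S:PCO1 replicate 1 was nearest to wild type and wild-type replicate 3 was lowest. AT2G38300, of the MYB-like family of transcription factors, had r = 0.970 and AT5G14410 had r = 0.967. AT1G67330, of the protein family DUF579, had r = 0.961, and AT4G01700, a further chitinase family gene, had r = 0.950. For these 4 r within groups ran from 0.651 to 0.852, and their differences from 0.33 to 0.45. Each was below the 0.70 for which QQS was chosen.

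The genes most opposite to QQS were AT2G21560 (r = -0.988), AT4G39860 (r = -0.980), AT1G72920, which encodes a protein with the TIR domain of immune receptors (r = -0.979), and UBC29, a ubiquitin-conjugating enzyme (r = -0.978). AT1G72920 had 5.02, 4.96 and 4.86 in 35S:PCO1, against 5.38, 5.46 and 5.57 in wild type. UBC29 had 8.02, 7.96 and 7.91 in 35S:PCO1, against 8.23, 8.35 and 8.47 in wild type. Both were highest in wild-type replicate 3 and lowest in 35S:PCO1 replicate 3, where QQS was lowest and highest. Likeness rested in part on single arrays and on the group difference. Of the 50 probe sets with the highest r, 14 were among the 50 with the highest r within groups. When 35S:PCO1 replicate 2 was left out 30 were kept, and when wild-type replicate 3 was left out 33.

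**Figure D5:**
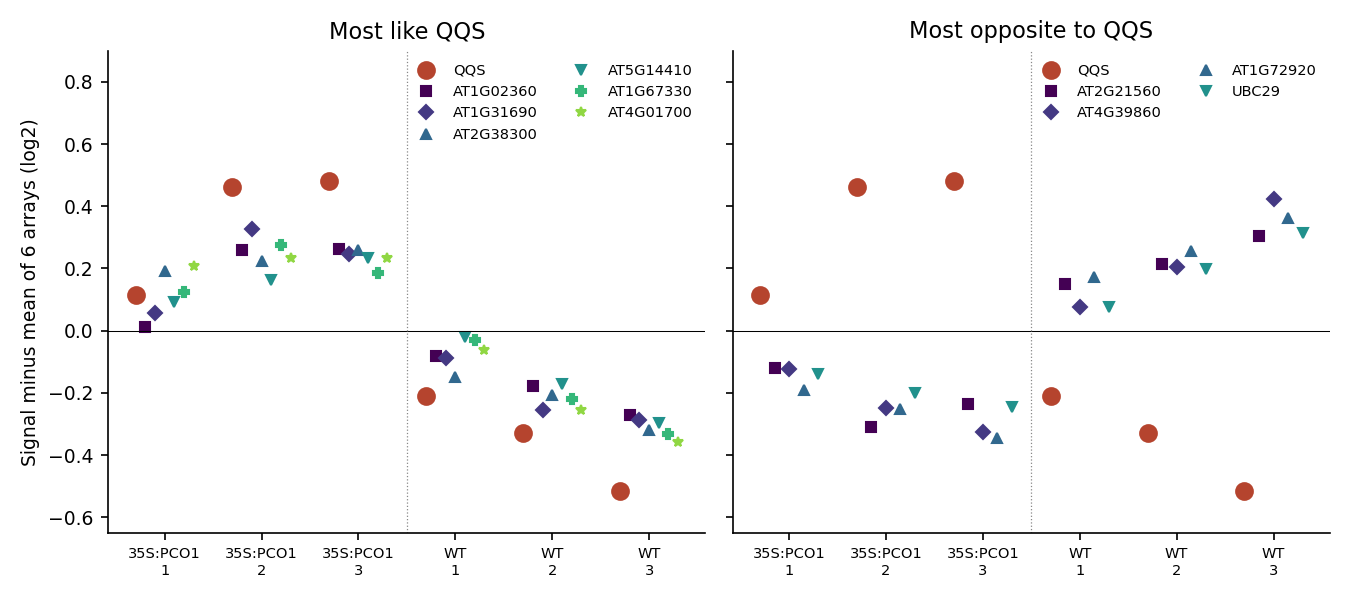
Signal of each array minus the mean of its 6 arrays (log2) for QQS with the 6 genes of highest r (left) and the 4 of lowest r (right). In the left panel all genes lie above 0 in 35S:PCO1 and below 0 in wild type. QQS, chosen for its difference, is farthest from 0 in 5 of the 6 arrays.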

How the data were processed

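The values are log2 signals as the authors deposited them, 1 for each probe set on each array, computed with RMA (version not given) per the submitters' processing notes. RMA forces the distributions of the arrays together and gives no detection call. No column was left without a sample, and no 2 arrays held identical values. Probe sets were named where the platform annotation gives exactly 1 gene (13513, against 503 with several and 8730 with none), with names updated through RefSeq (TAIR10.1), used for names and gene order only. A probe set left unnamed may still measure a known gene. No sequence is printed, and coordinates are not used here, since no build is given for the array values.

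The genotypes were compared with limma 3.58.1 in R 4.3.3 (lmFit, eBayes with a constant prior, two-sided, no covariate) and Benjamini-Hochberg adjustment over the 22746 probe sets and a threshold of 0.05. The fitting code was checked on simulated data with planted changes. Those data held no effects of single arrays, so the check does not bear on the counts given here. The precision is limited by the number of arrays, 3 per genotype. QQS and the lists of 5 processes and 4 kinds of organ markers were chosen with earlier results of these data known. Where a gene had more than 1 probe set, the one with the highest mean stood for it. Named were QQS, of each list the genes that passed and up to 6 others with the smallest p (1 more for starch synthesis, so that all 7 are given), the nearest genes by rise and by chromosome, and the 6 most alike and 4 most opposite genes. Alternatives were other scalings, array weights, a replicate block, a trended prior, filters on dim probe sets, and leaving out each array.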

Additional observations from a re-analysis of the deposited data

How the results depend on the processing

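The QQS difference of 0.70 was 0.69 to 0.72 under the 3 scalings, array weights and the replicate block. It ran from 0.62 to 0.82 when 1 array was left out. Leaving out 1 array could not reverse it, since its groups did not overlap, and the block cannot alter it in a balanced design. These values describe a difference for which QQS was chosen and do not test it. The rank of QQS by rise was 11 under cyclic loess and without the dimmest 40% of probe sets, 6 among probe sets with 1 gene, and 7 to 19 with 1 array left out. Among probe sets with 1 gene its rank by SD was 173 in 35S:PCO1 and 1411 in wild type, by construction lower numbers than among all. The count of changed probe sets, 191, stayed within 160 to 244 under the filters, scalings, trended prior and block. It was 2216 with array weights (965 higher, 1251 lower), which put 4.55 on wild-type replicate 2, 426 at an adjusted p under 0.1, and 5 to 489 with 1 array left out. The cause was not tested. The counts for starch synthesis and starch breakdown were 0 under each alternative run, which says little of stability, since 3 of the fits with 1 array left out called 5 probe sets in all. The number of starch synthesis genes at an unadjusted p under 0.05 was 1 with array weights and 1 without wild-type replicate 1. The counts for DNA methylation and for sugar status became 1 each with array weights (DME and MCCB). No alternative could be run for NF-Y, with no gene measured. Of the 50 probe sets most like QQS, 35 were shared with Spearman's rho, 14 with deviations from group means and 30 to 45 with 1 array left out.

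The replicate block gave 228 changed probe sets, 155 of them also called without it. The QQS difference was 0.70, which such a block cannot alter in a balanced design. The numbers are not shown to pair the samples: same-numbered arrays had correlations of deviations of -0.06, -0.08 and -0.02, and 0 of 3 correlated best with their own number. Of 324 alternative values for single genes of the lists and of the chromosome, 297 kept direction and side of the threshold, 5 passed that had not, and 22 changed sign or became 0 (RCA, at 0 after repeated quantile normalization), all in genes that did not pass. With 1 array left out the differences ran from -0.0215 to 0.185 for APL3, -0.0835 to 0.0328 for SBE2.2, -0.0163 to 0.112 for PTST1, -0.0551 to 0.0587 for PTST2, -0.0186 to 0.0349 for PTST3, -0.116 to 0.0178 for DPE1, -0.161 to 0.0690 for AMS, -0.0273 to 0.0825 for AT3G30670, -0.0183 to 0.0363 for AT3G30730 and -0.0029 to 0.0907 for AT3G30740. AMS was 0.13 with array weights and AT3G30730 -0.0086 with cyclic loess. RMA gives no detection call, so genes no brighter than the dap and lys controls have no measurable fall.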
